A study of Mus musculus with 90 samples.

Results

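CT26 cells, an established mouse colon carcinoma line, were kept in IFNγ for 1 week and then received fresh IFNγ for 2 h. The genes that moved within those 2 h were found by comparing the 3 samples labelled 1 week and 2 h (called here the 2 h group) with the 3 samples labelled 1 week and 0 h, which had the same week of IFNγ but no fresh addition (the 0 h group). These are 6 of the 90 samples of the series, and 32 of 8516 tested genes passed the threshold between them. The other CT26 groups used for comparison were naive cells, which had no IFNγ before (0-week control and 0-week 2 h), the 1-week control without IFNγ, the 24 h rechallenge at 1 week, and the 0 h and 2 h groups at 2 weeks. The same 1-week pair was taken from YUMM2.1, a mouse melanoma line. The labels name no group given a 2 h addition without IFNγ, so IFNγ and the handling at its addition cannot be told apart. IFNγ was used at 50 IU/mL, each group held 3 samples, and the labels name no altered gene in any of them. The labels speak of triplicate experiments without saying whether these were separate cultures, so p-values measure the spread between these samples, which may be technical. A sample is a whole culture of 1 cell line, and in such bulk RNA more cells responding and more RNA per cell cannot be told apart.

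IFNγ binds a receptor on the cell surface, and the receptor-bound kinases JAK1 and JAK2 then activate transcription factors of the STAT family. These enter the nucleus within minutes and bind short palindromes called GAS elements. Among their first targets is the gene for IRF1, a transcription factor that binds a different element, the ISRE, at a second wave of genes for pathogen defence and antigen presentation. SOCS1 and other inhibitors then dampen the receptor.

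The reference promoters of some responding genes carry matches to these elements. Stretches around matches are shown for genes that lead the results below, and promoters without a match are not shown. RefSeq promoters (GRCm38.p6) span 250 bases before to 50 bases after a gene's start, and 21 of the 31 genes that rose had an entry. The letters searched on both strands were TTCNNNGAA for GAS and GAAANNGAAA for ISRE. Each line gives the gene's strand 5′ to 3′, with matches to either in capitals.
Irf1: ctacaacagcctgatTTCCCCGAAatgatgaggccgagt
Irgm1: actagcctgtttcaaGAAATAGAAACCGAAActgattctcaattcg
Igtp: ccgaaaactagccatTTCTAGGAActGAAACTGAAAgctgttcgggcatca
Irgm2: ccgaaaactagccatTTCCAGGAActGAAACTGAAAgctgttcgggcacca
Tgtp1: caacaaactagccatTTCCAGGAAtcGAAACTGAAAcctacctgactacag
Gbp7: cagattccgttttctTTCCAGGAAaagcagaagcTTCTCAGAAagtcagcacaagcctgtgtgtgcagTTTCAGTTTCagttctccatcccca
Gbp2b: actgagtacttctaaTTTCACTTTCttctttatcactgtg

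The Irf1 stretch is chr11:53769909-53769947 on the plus strand, and its GAS match begins 90 bases before the start. The Irgm1 stretch is chr11:48871420-48871465 on the minus strand and holds 2 overlapping ISRE matches that begin 30 bases before the start. Igtp (chr11:58199496-58199546, plus), Irgm2 (chr11:58214887-58214937, plus) and Tgtp1 (chr11:48992299-48992349, minus) share the same layout, a GAS match followed by an ISRE match. Gbp7 (chr3:142530215-142530307, plus) has 2 GAS matches and 1 ISRE match, and Gbp2b (chr3:142594695-142594734, plus) has 1 ISRE match on the opposite strand. All of these lie upstream of the RefSeq start of their gene, while by the longer GENCODE gene models the stretches of Irgm1, Irgm2 and Tgtp1 lie within the gene. Among promoters of called genes, 7 of the 8 interferon-induced GTPase genes with an entry held an ISRE match and 4 of 8 a GAS match. Of the promoters of 6405 tested genes, 4.12% held an ISRE match and 7.87% a GAS match. Among the 13 other genes that rose and had an entry, 2 held an ISRE match (Ifi203 and Tmem140) and 1 a GAS match (Irf1). The letters TGANTCA, a loose form of the AP-1 element, were found in 5 of the 21 promoters and in 5.64% of the 6405. These were 3 of the 8 GTPase genes and 2 of the 13 others. The match read TGAGTCA in Irgm1 and Gbp2, and TGATTCA, which is not the usual AP-1 element, in Gbp2b, Ifi203 and Selp. A match describes letters in this window and does not show that a factor bound there.

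Within 2 h of fresh IFNγ, 31 genes rose and 1 fell. This is 0.376% of the 8516 tested genes in either direction and 0.364% in the upward direction, and 695 genes had an unadjusted p under 0.05. In all 32 genes the 3 samples of the 2 h group lay wholly above or wholly below the 3 of the 0 h group, an arrangement found in 11.8% of all tested genes. The rises ran from 0.66 to 4.40 on the log2 scale with a median of 1.77, and 29 of the 32 changes were at least 2-fold. Of the 31 genes that rose, 13 encode interferon-induced GTPases, and 18 are other genes, from the transcription factor Irf1 to growth factor and TGFβ pathway genes. The last gene past the threshold had an adjusted p of 0.044 (edgeR quasi-likelihood test, Benjamini-Hochberg adjustment), and the first gene that missed it was Gbp3, with 0.070 (0.023 with library totals as the scaling and 0.042 with RLE size factors).

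Depth was uneven. The total count was 1398869, 776937 and 322486 in replicates 1 to 3 of the 0 h group and 991422 to 1421049 in the 2 h group, and a gene listed at 0 in the shallowest library can hold transcripts that were not sampled. Replicate 3 of the 0 h group stood apart from most other CT26 libraries in correlation (median r 0.893), though replicate 3 of the 3-week 0 h IFNγ group was lower (0.888). Replicate 2 of the 2 h group stood apart from replicates 1 and 3 on the first principal component (31.7 against 9.60 and 2.76). Other CT26 libraries lay further out there, up to 42.3. Without these 2 libraries, 19 genes passed, all of them among the 32. Checked against defining markers, 7 of 10 epithelial genes, Epcam and Cdh1 among them, were at 0 in all 6 libraries, while Krt18 and Krt20 were counted. Of the other cell types, the summed leukocyte markers were 31.6 to 49.9 CPM (the count divided by the library size, scaled by edgeR's TMM factor and expressed as counts per 1e+06) at 0 h and 33.6 to 47.1 at 2 h, with Cd3e and Cd8a at 0 and Cd14, a receptor of myeloid and some other cells, giving 55, 33 and 9 counts at 0 h and 57, 33 and 46 at 2 h, most of that sum. The summed melanocyte markers stayed under 10 counts per library. Endothelial markers were at 0 except Pecam1, which gave 274.9 to 502.7 CPM at 0 h and 265.0 to 280.8 at 2 h. The part of these markers in the results was not tested.

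**Figure D1:**
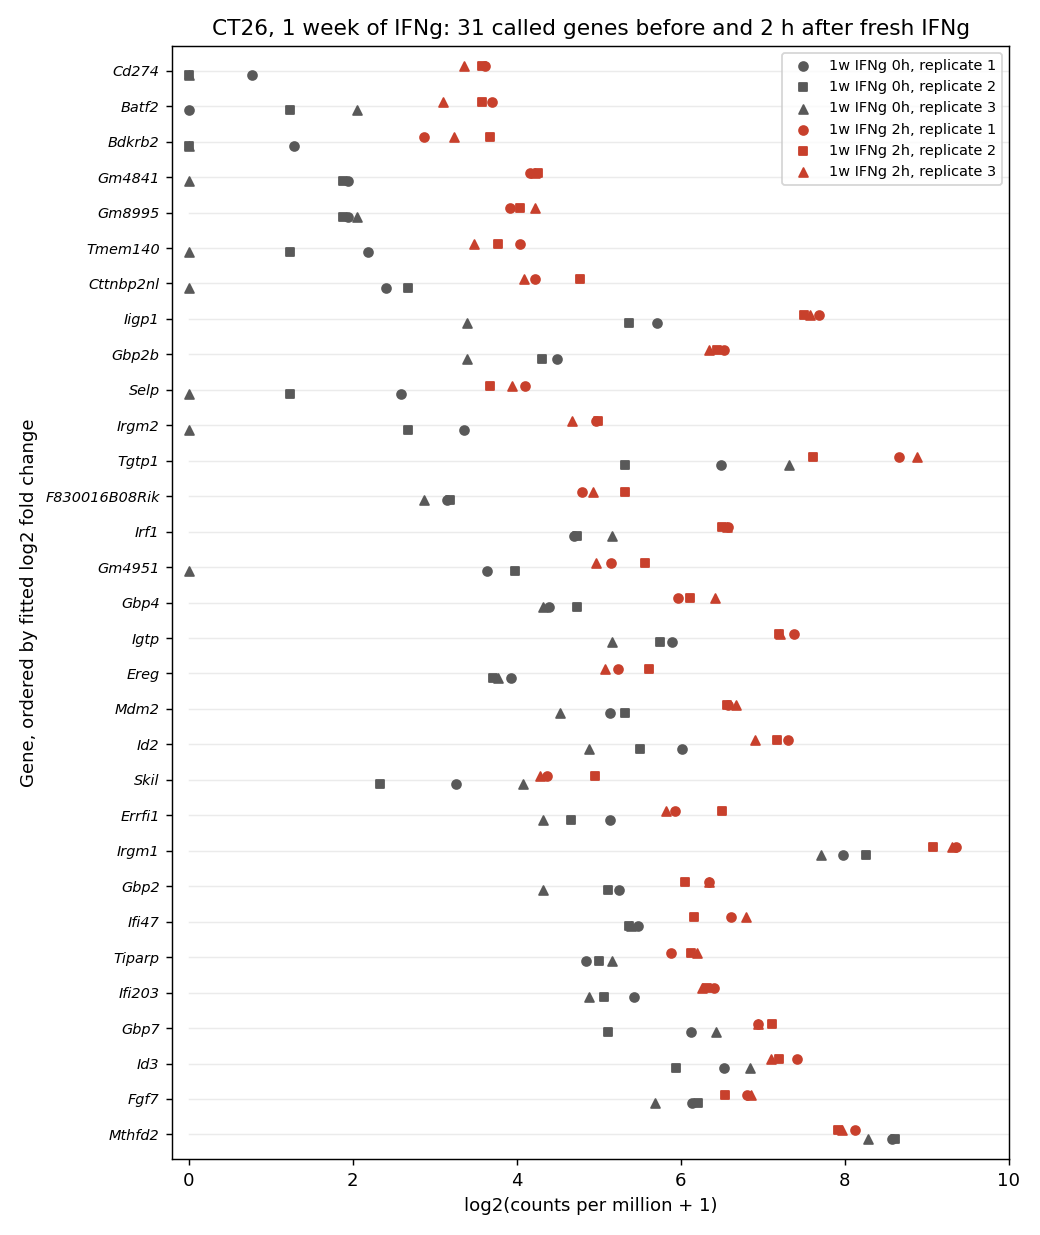
Level of 31 of the 32 called genes in the 3 samples of the 0 h group (grey) and the 3 of the 2 h group (red), as log2(CPM + 1), with genes ordered by fitted log2 fold change. In every gene the red and grey points do not overlap, and Mthfd2 at the bottom is the gene whose red points lie to the left.

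Irf1, the transcription factor that carries the IFNγ signal to ISRE genes, stood at 25, 25.6 and 34.8 CPM in the 0 h samples. In the 2 h samples it stood at 94.3, 89.8 and 93.5 CPM. The 2 h samples lay within a narrow band that was far above every 0 h sample. The fitted rise was 1.78 ± 0.21 on the log2 scale (SE, n = 3 per group, adjusted p = 1.6e-07), or 3.45-fold with a 95% interval of 2.57 to 4.61. Irf1 lies at chr11:53770014-53778374 (GRCm38). Batf2, a transcription factor that partners with IRF1, was nearly uncounted at 0 h, with 0, 1 and 1 counts, against 17, 12 and 9 counts at 2 h. The ratio of its rates was 12.6, with an exact 95% counting interval of 3.26 to 107.8.

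Of the 10 tested genes on the list of interferon-regulated transcription factors, Irf1 and Batf2 rose and the other 8 did not pass, with a list median of 0.48 on the log2 scale against 0.0056 over all tested genes. Nlrc5, the transactivator of MHC class I genes, had a log2 fold change of 1.16 ± 0.68 and an adjusted p of 0.66.

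The immunity-related GTPases (IRGs), which act on the membranes around intracellular pathogens, were the list with most genes past the threshold, 8 of 11 tested. All 11 had positive values and 10 had an unadjusted p under 0.05, which 4.63% of all tested genes had in the upward direction. The list median was 1.77. Irgm1, a regulator of the family, stood at 251, 305 and 209 CPM at 0 h and at 651, 536 and 632 CPM at 2 h. The samples of each group lay well apart from the other, and its 2.34-fold change (interval 2.00 to 2.74) had the smallest p of the comparison, with an adjusted p of 7.9e-10. Iigp1, an effector of the family that loads onto pathogen vacuoles, stood at 51.3, 40.4 and 9.49 CPM at 0 h and at 204, 181 and 190 CPM at 2 h. The 0 h samples of Iigp1 differed widely, the lowest being the shallow replicate 3, while the 2 h samples lay close together, and the fitted rise was 2.24 ± 0.21 on the log2 scale. Igtp rose from 58.5, 52.6 and 34.8 CPM to 166, 146 and 147 CPM, a log2 change of 1.55 ± 0.17.

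The other IRG genes past the threshold were Irgm2 (log2 change 2.08), Tgtp1 (2.05), F830016B08Rik (2.02), Gm4951 (1.77) and Ifi47 (1.14). Gm4841, a gene beside this family on chromosome 18 that was not on the list, rose by 2.82 ± 0.49. The 0 h samples of Gm4841, Irgm2 and Gm4951 began at 0 CPM and reached at most 2.85, 9.27 and 14.8 CPM. Tgtp1 varied widely, with 89.1, 39.1 and 158 CPM at 0 h and 402, 194 and 468 CPM at 2 h, and replicate 2 was the lowest in both groups. Its near-identical neighbour Tgtp2 gave 267, 345 and 158 CPM at 0 h and 465, 591 and 537 CPM at 2 h, with an adjusted p of 0.27. Reads of Tgtp1 and Tgtp2, of the chromosome 18 genes Iigp1, Gm4951, Gm4841 and F830016B08Rik, and of the overlapping genes Igtp and Irgm2 on the same strand of chromosome 11 could be split between copies, so the values of single copies are uncertain.

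The guanylate-binding proteins (GBPs), larger GTPases that coat and break open bacteria and vacuoles, had 4 of 10 tested genes past the threshold and a list median of 1.35. Gbp2b stood at 21.4, 18.9 and 9.49 CPM at 0 h and at 90.8, 86.2 and 80.0 CPM at 2 h. The groups were far apart, and the rise was 2.19 ± 0.23 on the log2 scale, with an adjusted p of 9.3e-09. Gbp4 rose by 1.71 ± 0.29, Gbp2 by 1.19 ± 0.21 and Gbp7 by 1.08 ± 0.18. Gbp7 started from 68.4, 33.7 and 85.4 CPM and reached 122, 137 and 122 CPM, so its 0 h samples were spread and its 2 h samples were not. Gbp4 overlaps Gbp8 and Gbp9 on the same strand, and the reads of these genes may not be told apart.

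Cd274, which encodes PD-L1, the ligand through which tumour cells hold back T cells, was close to uncounted after a week of IFNγ, with 1, 0 and 0 counts in the 0 h samples. The 2 h samples gave 16, 12 and 11 counts, or 11.3, 10.9 and 9.27 CPM. The 3 rechallenged libraries were thus alike, and the ratio of rates was 25.9, with an exact counting interval of 4.38 to 1048. The fitted log2 change of 4.40 ± 0.96 (adjusted p = 0.015) depends on how near to 0 the baseline was. Of the 6 tested checkpoint and lymphocyte ligands, Cd274 was the 1 that passed. Ifi203 belongs to an interferon-induced family, Gm8995 is annotated as a transcribed pseudogene, and Ifi203 rose from 42.1, 32.3 and 28.5 CPM to 83.7, 78.9 and 75.8 CPM. Tmem140 rose by 2.40 ± 0.52 and Gm8995 by 2.42 ± 0.59, each from at most 5 counts in a 0 h library. Ifi203 overlaps Mndal on its strand.

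Genes outside the interferon defence program rose in the same 2 h. Mdm2, the ubiquitin ligase that restrains p53, stood at 34.2, 39.1 and 22.1 CPM at 0 h and at 94.3, 93.5 and 101 CPM at 2 h. The 2 h samples lay close together and far above the 0 h samples, and the rise was 1.51 ± 0.20 on the log2 scale (2.85-fold, interval 2.14 to 3.79, adjusted p = 5.9e-06). Mdm2 was the 1 gene past the threshold among 11 tested G1 cyclins, CDK inhibitors and p53 targets. Cdkn1a, which encodes the CDK inhibitor p21, went from 157, 144 and 133 CPM to 213, 189 and 209 CPM, with an adjusted p of 0.087 (0.022 with library totals as the scaling and 0.042 with RLE size factors).

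Id2 and Id3 encode inhibitors of DNA-binding helix-loop-helix factors and are BMP and TGFβ targets, and Skil encodes SnoN, an inhibitor of SMAD proteins. Id2 stood at 63.5, 44.5 and 28.5 CPM at 0 h and at 157, 143 and 119 CPM at 2 h, a log2 change of 1.46 ± 0.21. Id3 rose by 0.82 ± 0.19 and Skil by 1.44 ± 0.35. These were the 3 genes past the threshold of 11 tested TGFβ pathway genes, whose median was 0.82, and 7 of the 11 had an unadjusted p under 0.05 in the upward direction. Pmepa1, Smad7 and Thbs1, also TGFβ targets, had log2 values of 2.11, 2.14 and 1.51 and adjusted p of 0.19, 0.45 and 0.43, and Pmepa1 passed with no filter on low counts (0.021).

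Ereg, which encodes the EGF receptor ligand epiregulin, stood at 14.3, 12.1 and 12.6 CPM at 0 h and at 36.6, 48.1 and 32.9 CPM at 2 h. The 0 h samples hardly differed, and the rise was 1.55 ± 0.29 on the log2 scale. Errfi1, a feedback inhibitor of the EGF receptor, rose from 34.2, 24.3 and 19.0 CPM to 59.8, 89.8 and 55.6 CPM. Both belong to the list of MAPK feedback genes and EGFR ligands, in which 2 of 9 tested genes passed and the median was 0.90. Dusp5 and Dusp6, phosphatases that act on ERK, had log2 values of 2.1 and 0.68 without passing (adjusted p of 0.46 and 0.35).

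The immediate-early transcription factor genes had a median of 0.70, and 0 of 21 passed the threshold in edgeR, while 8 had an unadjusted p under 0.05 in the upward direction and 1 in the downward. Junb went from 23.5, 32.3 and 19.0 CPM to 65.4, 31.8 and 53.9 CPM, so that 1 sample of the 2 h group lay within the range of the 0 h group. Its log2 value was 0.98 (adjusted p = 0.13), and it passed without that sample, replicate 2 (1.22, adjusted p = 0.022), and with library totals as the scaling (0.036), with up to 0.45 under the other alternatives. Klf4 had 1.64 (adjusted p = 0.26) and passed with no filter on low counts (0.025). Klf6 had a log2 value of 0.86 and Gadd45g of 1.89, with adjusted p of 0.090 and 0.13. Fos, Atf3 and Dusp1 were among the genes too sparsely counted to be tested. Counts of some untested immediate-early genes were higher at 2 h and of others were not.

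The remaining genes that rose have separate roles. Tiparp, an ADP-ribosyltransferase that limits the aryl hydrocarbon receptor, stood at 27.8, 31.0 and 34.8 CPM at 0 h and at 57.7, 69.0 and 72.5 CPM at 2 h, a log2 change of 1.13 ± 0.17. Fgf7, which encodes keratinocyte growth factor, rose by 0.66 ± 0.15. Selp, which encodes the adhesion receptor P-selectin, rose by 2.14 ± 0.49, and Cttnbp2nl by 2.28 ± 0.43. Both started low, with 0 h samples of 0 to 4.99 CPM for Selp and 0 to 5.39 CPM for Cttnbp2nl. For Selp the 1-week control, at 6.11 to 7.34 CPM, lay above the 0 h samples. Bdkrb2, which encodes the bradykinin B2 receptor, had 2, 0 and 0 counts at 0 h and 9, 13 and 10 at 2 h, a ratio of 10.6 with a counting interval of 2.71 to 91.4. The fall was in Mthfd2, a mitochondrial enzyme of folate metabolism, which went from 380, 389 and 310 CPM to 279, 241 and 249 CPM and fell by 0.51 on the log2 scale (SE 0.11, adjusted p = 0.0098).

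Leaving out each of the 6 libraries in turn kept 17 of the 32 calls every time, among them Irf1, Irgm1, Iigp1, Igtp, all 4 GBPs, Mdm2, Id2, Ereg and Tiparp. The other 15 missed the threshold without at least 1 library. Cttnbp2nl missed it without replicate 1 of the 0 h group (adjusted p = 0.051), and Irgm2 and Tgtp1 without replicate 2 of the 0 h group (0.077 and 0.075). Cd274 missed it without replicates 1 or 2 of the 0 h group or replicate 1 of the 2 h group, with adjusted p of 0.053 to 0.12 over these libraries and a fitted log2 change of 3.98 to 6.70 over all 6. Without replicate 1 of the 0 h group the log2 change also moved by over 1.5 times in fold for Selp (2.14 to 3.79), Tmem140 (2.40 to 3.65), Irgm2 (2.08 to 2.92), Bdkrb2 (3.32 to 6.45) and Batf2 (3.45 to 2.37), and without replicate 3 of that group Batf2 had 4.16. Batf2, Id3 and Skil missed it without replicates 1 or 2 of either group (up to 0.38 in each), Errfi1 without any library but replicate 3 of the 2 h group (0.055 to 0.40), and Bdkrb2 without any but replicate 1 of the 2 h group (0.067 to 0.26). Fgf7 missed it without replicates 1 or 3 of either group (up to 0.145), and Selp without replicates 2 or 3 of the 0 h group or 1 or 3 of the 2 h group (up to 0.24). Tmem140 missed it without replicates 2 or 3 of the 0 h group or replicate 1 of the 2 h group (up to 0.14), and Mthfd2 without replicates 1 or 2 of the 0 h group or 2 or 3 of the 2 h group (up to 0.15). Gm8995 missed it without any of the 6 (0.078 to 0.24). The direction was the same in all of these. Among the 17, Ereg missed the threshold with both libraries that stood apart left out (0.083), and Gbp7 and Gm4951 with the compared groups alone (0.11 and 0.16). Irgm1, Irf1 and Gbp2b passed under every alternative, with adjusted p of up to 0.00064.

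**Figure D2:**
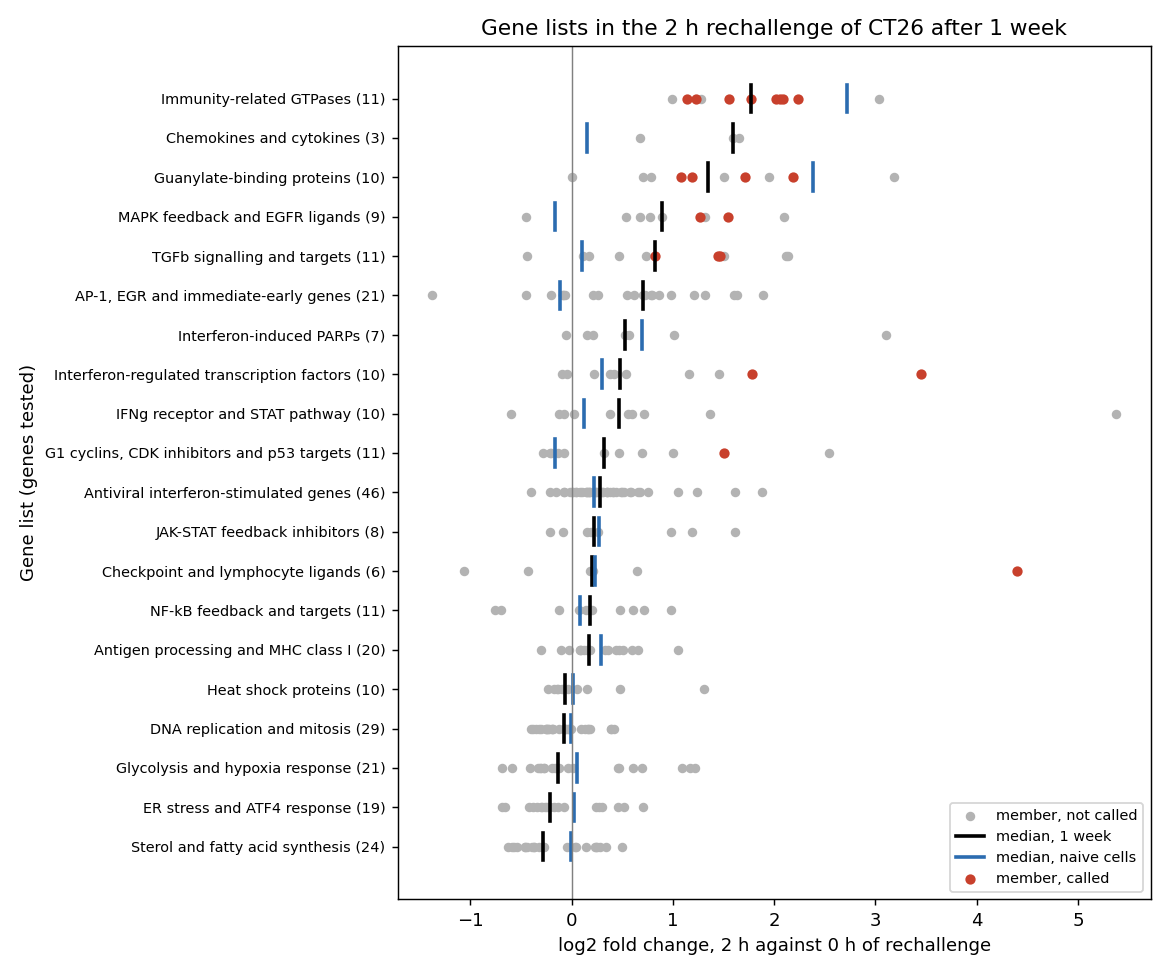
Fitted log2 fold change of the tested members of the gene lists shown (points, red where called), with the list median at 1 week (black bar) and in naive cells (blue bar). Called genes outside these lists are not plotted. The IRG and GBP medians of 1.77 and 1.35 lie below their naive values of 2.72 and 2.38, and the TGFβ, MAPK and immediate-early medians of 0.82, 0.90 and 0.70 lie above theirs.

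Several parts of the IFNγ program did not pass at 2 h. None of 20 tested antigen processing and MHC class I genes passed in edgeR (median 0.17, 2 with an unadjusted p under 0.05), and B2m, the MHC class I light chain, gave 1743, 1402 and 1603 CPM at 0 h and 2015, 1442 and 1876 CPM at 2 h. None of 46 antiviral genes passed (median 0.28, 6 with an unadjusted p under 0.05), and Ube2l6, the E2 enzyme of ISG15, passed without replicate 2 of the 0 h group (adjusted p of 0.047 against 0.21). With library totals as the scaling, Psmb10 of the antigen processing list passed (adjusted p = 0.024), as did the antiviral genes Ifi44 (0.041) and Ube2l6 (0.015). Of the receptor and STAT genes 0 of 10 passed (1 at an unadjusted p under 0.05, median 0.47). Ifngr2, the second chain of the receptor, was at 0 in all 3 libraries of the 0 h group. It had 3, 5 and 7 counts at 2 h, with an adjusted p of 0.21. The exact counting interval of its ratio of rates began at 2.38 and had no upper limit. Set against a floor of 3 counts over the 0 h group, the ratio was 3.32. Of 8 tested feedback inhibitors 0 passed (2 at an unadjusted p under 0.05), and Socs1 had 5, 0 and 1 counts at 0 h and 8, 16 and 3 counts at 2 h. Of 24 chemokines and cytokines 3 had counts enough to be tested and 0 passed in edgeR (2 at an unadjusted p under 0.05, both upward, median 1.59). Cxcl10, a T cell attractant, had a log2 value of 1.65 and an adjusted p of 0.43.

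Of 7 interferon-induced PARP genes 0 passed in edgeR (1 at an unadjusted p under 0.05), with a median of 0.53. Parp14, an ADP-ribosyltransferase that modulates STAT signalling, had 1, 0 and 2 counts at 0 h and 18, 16 and 9 counts at 2 h. All 3 samples of the 2 h group lay above all 3 of the 0 h group, the ratio of rates was 9.51 with a counting interval of 3.04 to 47.9, and the adjusted p was 0.095. Parp14 passed without replicate 3 of the 0 h group, the shallowest library (log2 value 4.37 against 3.10, adjusted p = 0.026), without the low-depth samples (0.028) and with no filter on low counts (0.0073), and had up to 0.42 under the other alternatives. Parp9 stood at 20, 5.39 and 37.9 CPM at 0 h and at 18.3, 23.6 and 19.4 CPM at 2 h, groups that overlap, and Parp12 had an adjusted p of 0.86.

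The sterol, ER stress and glycolysis lists had negative medians and 0 genes past the threshold in edgeR. Of 24 sterol and fatty acid synthesis genes 9 had an unadjusted p under 0.05 in the downward direction, which 3.53% of all tested genes had, and the median was -0.28. Fdps, an enzyme of the mevalonate pathway, went from 421, 500 and 547 CPM to 393, 277 and 324 CPM (adjusted p = 0.23). It passed with no filter on low counts (0.048). Of 19 ER stress and ATF4 genes 5 were lower at an unadjusted p under 0.05, with a median of -0.21, and Psat1, an enzyme of serine synthesis, had a log2 value of -0.39. The lists of NF-κB targets (11 tested, median 0.18), heat shock proteins (10, -0.065), glycolysis and hypoxia genes (21, -0.13), arrestins that sense glucose (2, 0.86) and DNA replication and mitosis genes (29, -0.077) had no gene past the threshold either. At an unadjusted p under 0.05 they held 1, 1, 4, 1 and 0 genes upward and 0, 1, 4, 0 and 2 downward. DESeq2 likewise called 0 genes in every list without a call in edgeR, with the exception of glycolysis, where it called 1 lower, Eno1, which encodes the glycolytic enzyme enolase. In the lists with calls, DESeq2 did not call Cd274, Batf2 and Skil and called the other members that edgeR called.

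After the same 2 h of IFNγ in naive cells, in samples that the 1-week comparison does not use, 20 genes were higher, 0.235% of those tested. The 2 sets shared 12 genes, 37.5% of the 32 and 60% of the 20, and these 12 were 11 GTPases and Irf1. Of the 18 other genes that rose at 1 week, 17 did not pass in naive cells, where their values ran from -2.47 to 4.69 around a median of 0.20. That a gene passed at 1 week and not in naive cells does not show that its responses differed, and the difference itself was tested in the same fit. It passed for 9 genes (0.106% of those tested), and 701 had an unadjusted p under 0.05.

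In 6 of these 9 genes the log2 response was smaller at 1 week, and 5 of the 6 are described. A log2 response is a ratio to the level before the addition, and gains in CPM were not tested. Irf1 rose by 1.78 at 1 week against 3.46 in naive cells, a difference of -1.68 (adjusted p = 0.011). It started from 7.31 ± 1.1 CPM in naive cells (SD, n = 3) and from 28.4 ± 5.5 CPM after a week of IFNγ, and at 2 h it stood at 80.8 ± 6.7 and 92.5 ± 2.4 CPM. Irgm1 went from 82.5 to 419 CPM in naive cells and from 255 to 606 CPM at 1 week, a difference in log2 response of -1.12 (adjusted p = 0.00012). Gbp7 rose by 1.08 against 3.45 (difference -2.37) and Igtp by 1.55 against 3.19 (-1.63). Rtp4, an interferon-induced chaperone of receptors, had 0.27 against 1.62 (-1.35). In 10 of the 13 GTPases, and in 3 of the 18 other genes that rose, all 3 samples of the 1-week 0 h group lay above all 3 of the 1-week control, as in 6.19% of all tested genes. The 2 h samples at 1 week lay above the 2 h samples of naive cells in all 13 GTPases and in 17 of the 18 other genes, as in 8.7% of all tested genes. The genes were chosen for their rise at 1 week, which both levels enter, so these counts are a description. The level after a week enters both the 0 h value and the response, and the 2 are not independent.

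In 3 genes the log2 response was larger at 1 week. Mdm2 rose by 1.51 against 0.20 in naive cells (difference 1.31, adjusted p = 0.034), and Id2 by 1.46 against 0.19 (1.27, adjusted p = 0.045). Bdkrb2 had 3.32 against -2.47 (5.79, adjusted p = 0.011), from 0.475 to 8.85 CPM at 1 week and from 2.96 to 0.438 CPM in naive cells. Ereg had 1.55 against 0.19 and Errfi1 1.27 against -0.16, and the differences of both did not pass (adjusted p of 0.35 in each). Without replicate 1 of the 0 h group at 1 week 4 of the 9 differences remained, and with the 2 libraries that stood apart left out also 4. Mdm2 missed the threshold without 11 of the 12 libraries of this comparison, 1 at a time (adjusted p up to 0.18), Id2 without 9 (up to 0.22) and Rtp4 without 8 (up to 0.25). Irf1 missed it without replicates 2 or 3 of the naive control or replicate 1 of the 1-week 0 h group (up to 0.089). Igtp missed it without that last library (0.082), and Bdkrb2 without replicate 2 of the naive control or of the naive 2 h group (0.11 and 0.053). Gbp7 and Irgm1 passed without any 1 of the 12.

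**Figure D3:**
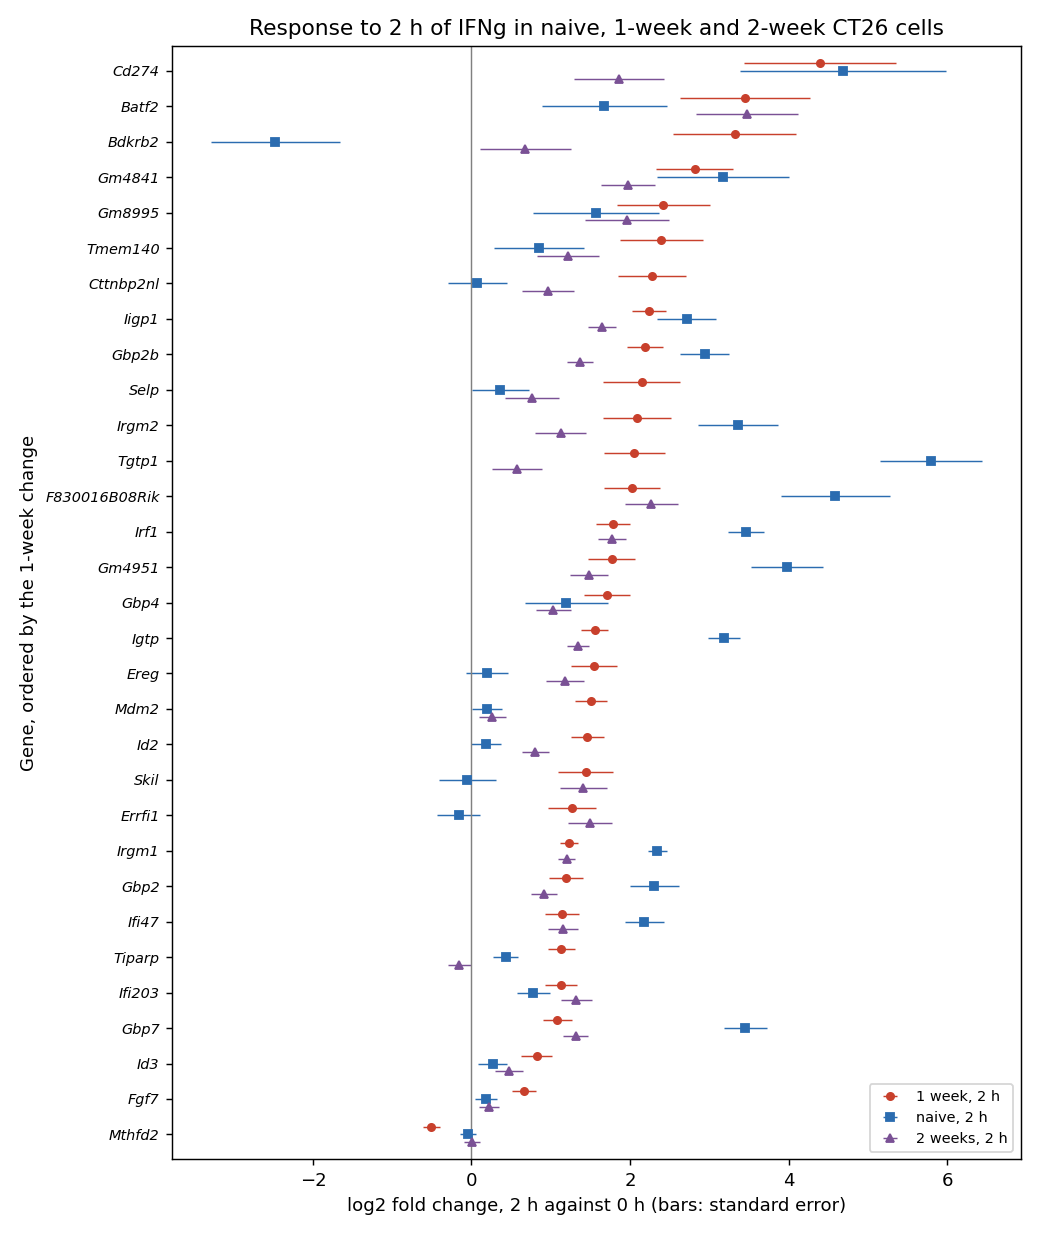
Fitted log2 fold change of 31 of the 32 called genes after 2 h of IFNγ at 1 week (red circles), in naive cells (blue squares) and at 2 weeks (purple triangles), with bars for the standard error. The IRG and GBP genes lie further right in blue than in red for all but Gbp4, while Mdm2, Id2, Ereg, Skil and Errfi1 lie near or below 0 in blue.

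After 2 weeks of IFNγ, again in other samples, 26 genes changed within 2 h of fresh IFNγ (0.305%). Of the 31 genes that rose at 1 week, 19 also rose there. Among them were 11 of the 13 GTPases and Irf1, Ifi203, Batf2, Ereg, Errfi1, Id2 and Skil. Irf1 rose by 1.77 at 2 weeks and by 1.78 at 1 week. Ereg went from 18.5 ± 6.2 to 43.3 ± 1.5 CPM at 2 weeks (SD, n = 3), and at 1 week from samples between 12.1 and 14.3 CPM to samples between 32.9 and 48.1 CPM. The difference between the 2 responses passed for 1 gene, Tiparp (0.0117% of those tested), and 421 had an unadjusted p under 0.05. Tiparp rose by 1.13 at 1 week and had -0.15 at 2 weeks (difference 1.29, adjusted p = 0.0062), where it stood at 61.3 ± 2.5 CPM before and 55.3 ± 2.0 CPM after. This difference missed the threshold without replicate 1 of the 0 h group at 1 week (adjusted p = 0.29) or replicate 3 of the 2 h group at 1 week (0.054). Mdm2 was 65.9 ± 18 CPM at 2 weeks before fresh IFNγ and 78.0 ± 10 CPM after, levels that overlap.

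The state before rechallenge had its own comparison, 1 week of IFNγ against the 1-week control, in which 62 genes changed (0.728%). It shares the 0 h samples with the 2 h comparison, so values are set side by side only. Gbp7 stood 3.39 above control on the log2 scale and rose by a further 1.08 in 2 h, and Igtp 2.75 and 1.55. Gbp3 stood 4.68 above control and had 0.79 in 2 h. Cd274 had -0.09 against control and 4.40 in 2 h, Mdm2 -0.23 and 1.51, Id2 -0.42 and 1.46, and Ereg -0.28 and 1.55, and none of these 4 passed against control.

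By 24 h of rechallenge 45 genes differed from the 2 h level (0.528%), in a comparison that shares the 2 h samples. Gbp2b stood at 85.7 ± 5.4 CPM at 2 h and at 415 ± 17 CPM at 24 h, a log2 change of 2.27 (adjusted p = 7.7e-15), and Gbp4 and Gbp2 rose by 2.72 and 2.42. Irf1 and Irgm1 had -0.06 and 0.05, and their 24 h samples overlapped the 2 h samples. Ereg fell by 1.04 and Errfi1 fell by 1.19 on the log2 scale (adjusted p of 0.033 and 0.026). Ereg stood at 39.2 ± 7.9 CPM at 2 h and at 18.9 ± 4.5 CPM at 24 h, against 12.1 to 14.3 CPM in the 0 h samples. Mdm2 and Id2 had -0.35 and -0.34 and did not pass.

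**Figure D4:**
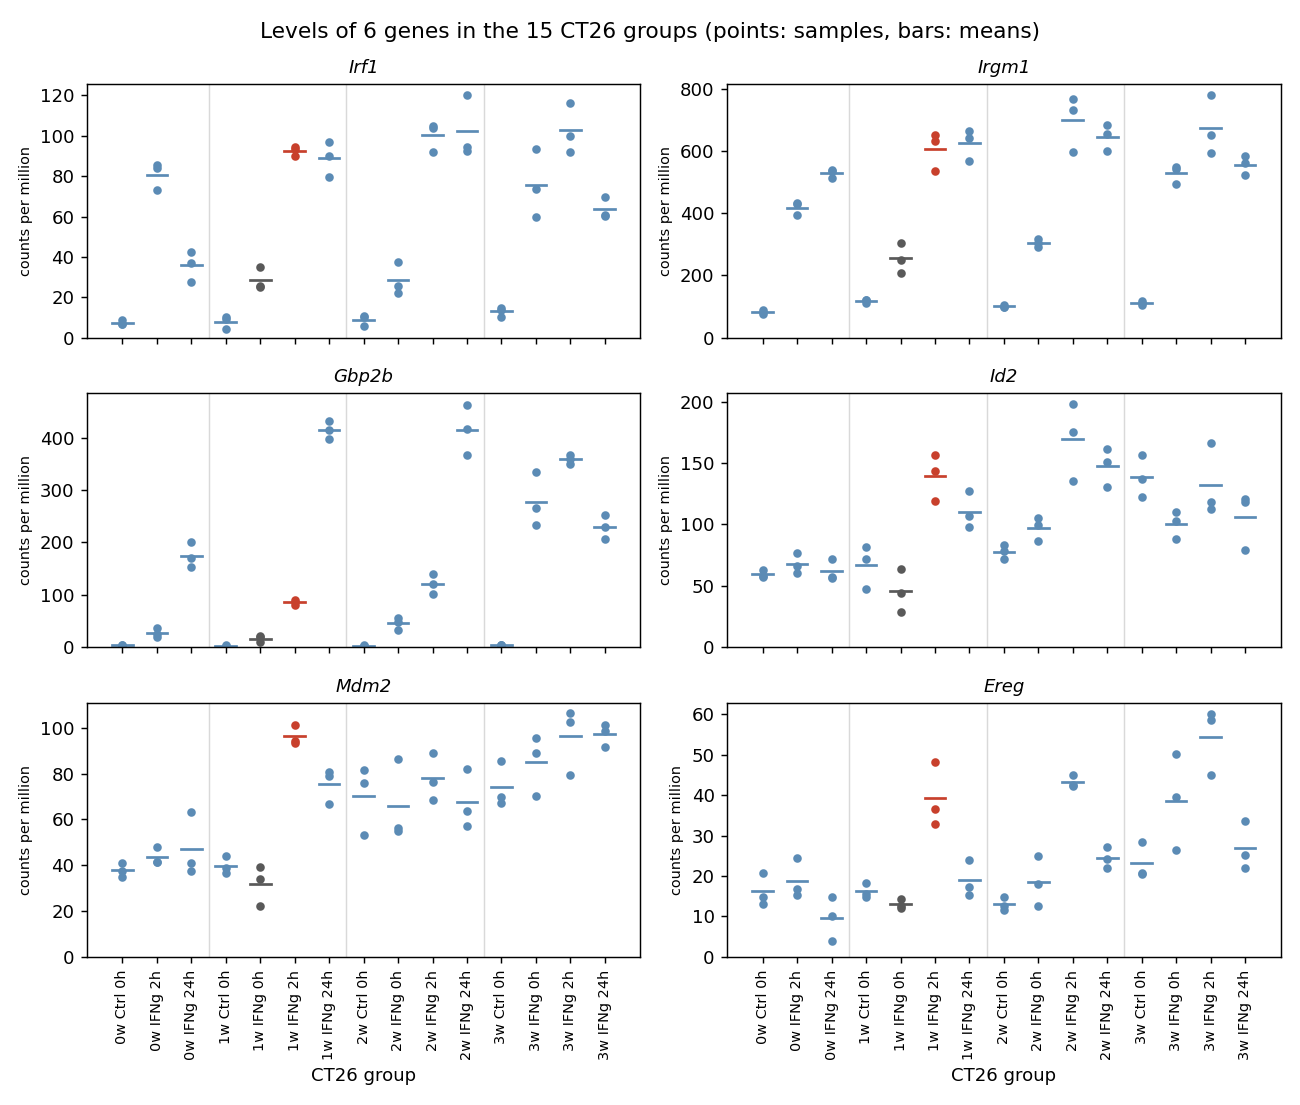
CPM of 6 genes in the 15 CT26 groups (points are samples, bars are means), with the 1-week 0 h group in dark grey and the 1-week 2 h group in red. Irf1 and Irgm1 reach their 2 h level and hold it at 24 h, Gbp2b rises further from 85.7 to 415 CPM, and Ereg falls from 39.2 to 18.9 CPM.

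In YUMM2.1 cells 59 of 9589 tested genes changed after the same 1-week rechallenge (0.615%). Of the 31 genes that rose in CT26, 25 were tested in YUMM2.1 and 16 rose there, among them 11 GTPases, Irf1, Cd274, Errfi1, Skil and Tmem140. The difference between the lines, in 1 fit of both, passed for 5 of 10339 genes (0.0484%), and 412 had an unadjusted p under 0.05. Mdm2 rose by 1.51 in CT26 and had 0.20 in YUMM2.1, where it stood at 73.9, 65.4 and 68.1 CPM at 0 h and 61.2, 97.2 and 81.9 CPM at 2 h (difference 1.35, adjusted p = 0.011). Rtp4 had 0.27 in CT26 and 2.39 in YUMM2.1 (difference -2.07, adjusted p = 7.2e-07). Tsc22d1, a TGFβ-stimulated gene, had 0.69 and -0.71 (difference 1.42), and Cryab, a small heat shock protein, had 1.11 and -0.26 (1.39). Junb had 0.98 and 3.07 (difference -2.03, adjusted p = 0.039), from 13.2, 6.10 and 6.39 CPM to 68.3, 69.2 and 99.9 CPM in YUMM2.1. Of these 5, Rtp4 and Tsc22d1 kept an adjusted p under the threshold without any 1 of the 12 libraries, whereas Mdm2, Junb and Cryab each missed it without 5 or more of them (up to 0.12, 0.31 and 0.34).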

How the data were processed

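Libraries of 3′ ends (digital gene expression) were made from both lines. The authors deposited raw gene counts. Their methods name tximport for the import, the submitters' processing notes name Salmon 0.13.1 and build mm10, and other upstream settings are not given in the sources used here. Of 53697 gene identifiers, 53668 were matched to a symbol. Groups came from the sample titles.

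The deposited counts were tested with edgeR 4.0.16 in R 4.3.3 (quasi-likelihood F test, TMM scaling, low counts filtered by group, Benjamini-Hochberg adjustment over all genes tested, threshold 0.05). All 45 CT26 samples in 15 groups entered 1 fit, which tested 8516 genes, and both lines (90 samples) entered 1 fit for the difference between them. The paper's methods state that 1 YUMM2.1 and 4 CT26 samples were dropped as outliers, and do not name them. These fits kept every sample, so the set differs from that of the paper. Adjusted p-values in the text come from these fits unless another tool is named. Standard errors were the absolute log2 fold change divided by the square root of F. Counting intervals are exact at 95% and cover counting error only. Total counts ran from 295157 to 2205285 in CT26. On simulated data for the 1-week comparison, among 8078 genes, 35.4% of 2-fold and 72.9% of 4-fold changes were recovered, and 8 of 112 calls were false. Simulated counts were drawn around each gene's mean over all 45 CT26 samples, with changes in random directions and no outlying library. The rates in the real data may therefore differ.

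The named genes were the 20 largest rises and 10 largest falls among genes past the threshold with groups that did not overlap, 9 genes whatever their values, up to 4 members with the smallest p from each list, and the 6 smallest p among genes called in each difference. Gbp3, Tgtp2, Smad7, Thbs1, Klf4, Cd14 and Ube2l6 were named after their values were seen. Results for some genes, 1 of the 32 called genes among them, are not reported here, although counts over all genes include them. The members and lists were chosen with earlier results of these data known. Same-numbered replicates of the 2 h and 0 h groups did not deviate together (r -0.07, -0.15 and -0.07), so they were not treated as pairs. Alternatives were DESeq2 1.42.0, other scalings, no filter, fewer groups, a replicate block, low-depth samples left out and each library left out. Leaving out both libraries that stood apart was added after seeing the data.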

Additional observations from a re-analysis of the deposited data

Results flagged for a closer look

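The results below were singled out because a test of the difference between 2 responses passed (edgeR quasi-likelihood test, adjusted p under 0.05). Each value is the log2 response at 1 week in CT26 minus the other response.

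Against naive CT26 cells, the difference was -1.12 for Irgm1, -2.37 for Gbp7, -1.63 for Igtp, -1.68 for Irf1 and -1.35 for Rtp4. It was 5.79 for Bdkrb2, 1.31 for Mdm2 and 1.27 for Id2. Bdkrb2 rested on at most 13 counts in a library of the 1-week groups.

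Against the 2-week rechallenge, the difference was 1.29 for Tiparp. Against the 1-week rechallenge of YUMM2.1, it was -2.07 for Rtp4, 1.42 for Tsc22d1, 1.35 for Mdm2, -2.03 for Junb and 1.39 for Cryab. Mdm2 and Rtp4 appear in both the naive and the YUMM2.1 comparison, which share the 1-week CT26 samples. The cause of these differences was not tested.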

How the results depend on the processing

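The 1-week count of 32 became 82 with no filter and 19 with both libraries that stood apart left out, and ran from 22 to 28 without 1 library. DESeq2 gave 31, RLE size factors 34, library totals 42, the compared groups alone 22 and low-depth samples left out 31. The split of higher and lower calls was 53 and 29 with no filter and 26 and 5 with low-depth samples left out. With no filter, 24691 genes were tested. Of the 32 genes, 14 passed under all 14 alternatives and 0 changed sign. Library totals moved the median of all genes to 0.080. The difference from naive cells gave 71 genes with no filter, 4 without both libraries, and 4 to 10 without 1 library. The difference from 2 weeks gave 3 by DESeq2, 40 with no filter, 0 in edgeR with the compared groups alone, and 0 to 1 without 1 library. The 24 h comparison gave 72 by DESeq2, 68 with library totals, 85 with no filter, 27 with the compared groups alone, 29 without both libraries, and 25 to 47 without 1 library. With no filter, the naive response gave 47, the week of IFNγ 120 and the difference from YUMM2.1 21. That difference gave 3 with the compared groups alone, 2 without both libraries and 2 to 5 without 1 library. Parp9 had 0.15, ran from -0.29, without replicate 2 of the 0 h group, to 0.51 over the libraries left out, and had 0.53 with low-depth samples left out. With a replicate block, the counts were 29 at 1 week, 9, 1 and 5 for the differences from naive cells, 2 weeks and YUMM2.1, 45 at 24 h, 20 in naive cells and 65 for the week of IFNγ. The cause of these shifts was not tested. At the lowest depth of the 0 h group, 322486 counts, a gene near 0 has a poorly fixed fold change.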
